A study of Mus musculus with 6 samples.

Results

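Nuclear genes for the mitochondrial respiratory chain, the ATP synthase, the mitochondrial ribosome and the protein import machinery carried sites where UTX CUT&Tag signal was lower in UTX-deficient than in WT progenitor CD8 T cells. The sites were taken from the authors' deposited table by gene symbol alone: Nduf (complex I), Sdha to Sdhd (complex II), Uqcr (complex III), Cox followed by a number (complex IV), Atp5 (ATP synthase), Mrpl and Mrps (large and small mitochondrial ribosomal subunits), Timm (inner membrane translocases) and Tomm (outer membrane translocase). They came to 57 of the 6739 sites in the table and to 54 of its 5237 gene symbols. The names set the members and no measured value did, but the table itself holds only sites with an FDR under 0.05, so that each member had passed the authors' test beforehand. Of the 9 families, only complex III had no site.

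UTX, encoded by Kdm6a, is an H3K27 demethylase that also belongs to the MLL3 and MLL4 methyltransferase complexes. Most subunits of the respiratory chain are made from nuclear genes, translated in the cytosol and brought in through the TOM channel of the outer membrane and the TIM channels of the inner membrane, while the remaining core subunits come from mitochondrial DNA and are made on the mitochondrial ribosome. Complexes I and II pass electrons to ubiquinone, complex III hands them to cytochrome c, complex IV gives them to oxygen, and the ATP synthase uses the proton gradient. The promoters of these nuclear genes are known for sites of NRF1, of the ETS factor GABP (also called NRF2) and of YY1. Progenitor CD8 T cells, which renew and feed the effector pool, are described as relying on mitochondrial respiration.

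CUT&Tag cuts DNA beside an antibody, here one against UTX, so that reads pile up where UTX lies. The 3 UTX-deficient samples came from NY8.3 NOD mice with UTX deleted in T cells, labelled UTX_knock, and the 3 WT samples from NY8.3 NOD mice with UTX intact. All these mice carry the NY8.3 transgenic receptor for an islet antigen, and the cells were CD8 T cells positive for Ly108 and negative for CXCR6, sorted from the pancreatic lymph node. The labels name neither the Cre driver, the deleted part of Kdm6a, the age of the mice nor whether animals were pooled, and nothing says that the samples of a group came from separate animals, so p-values measure the spread between these samples. Per library, whole reads were recovered from the group concentrations at 6735 sites, among them all 57 mitochondrial sites. Relative to a mean of 1, library depth was 1.93, 1.07 and 0.00577 in UTX-deficient cells and 1.28, 0.916 and 0.792 in WT cells. The near-empty UTX-deficient library had no read at any mitochondrial site. At its depth the WT level would have given 9.72 reads over all 57 sites together. But it also had no read at any of the 6716 solved sites lower in UTX-deficient cells. There 1 read is worth 173.2 normalized reads, and the table holds only sites with an FDR under 0.05. Its 0 reads therefore show no loss of signal. At the site in Kdm6a itself the reads were 8, 12 and 0 in UTX-deficient cells and 65, 48 and 35 in WT cells. That site reports UTX signal and does not check the deletion. Sites lower in UTX-deficient cells were assigned to 5 of 6 CD8 T cell markers (all except Cd3g), to all 4 progenitor markers and to none of 4 B cell, 5 myeloid and dendritic or 2 natural killer markers. Cd4 and the sort marker Cxcr6 also had sites, as did Pecam1, 1 of 6 pancreas and stroma markers, and the part of other cells in these sites was not tested.

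The promoters below carry the finding at sequence level: for each family except complex III they show the promoter with the smallest FDR among the sites that overlap the promoter window of their own gene. RefSeq's sequence table (GRCm38.p6, the assembly of mm10) gave a start for 50 of the 57 sites. The stretches run 5′ to 3′ from 250 bases before the start through 30 bases from it on. Capitals mark matches on either strand to GCGCANGCG (NRF1), CCGGAAG (ETS, the family of GABP), ATGGCGG (YY1), GGGGCGG (SP1), TGACGTCA (CREB) and CCAAT (NFY).
Ndufs8, chr19:3912745-3913024, minus strand: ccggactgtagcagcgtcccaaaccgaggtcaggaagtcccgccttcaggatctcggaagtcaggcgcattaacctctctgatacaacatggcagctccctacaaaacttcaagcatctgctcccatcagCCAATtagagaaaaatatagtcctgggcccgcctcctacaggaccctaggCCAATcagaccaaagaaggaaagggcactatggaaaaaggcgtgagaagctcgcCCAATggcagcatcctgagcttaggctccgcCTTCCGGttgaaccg
Sdhaf1, chr7:30322346-30322625, minus strand: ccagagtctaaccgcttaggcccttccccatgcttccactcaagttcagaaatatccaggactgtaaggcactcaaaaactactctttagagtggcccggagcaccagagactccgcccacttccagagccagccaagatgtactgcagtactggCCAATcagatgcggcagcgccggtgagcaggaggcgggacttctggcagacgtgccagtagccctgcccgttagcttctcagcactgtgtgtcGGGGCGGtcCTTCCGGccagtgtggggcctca
Cox20, chr1:178318903-178319182, plus strand: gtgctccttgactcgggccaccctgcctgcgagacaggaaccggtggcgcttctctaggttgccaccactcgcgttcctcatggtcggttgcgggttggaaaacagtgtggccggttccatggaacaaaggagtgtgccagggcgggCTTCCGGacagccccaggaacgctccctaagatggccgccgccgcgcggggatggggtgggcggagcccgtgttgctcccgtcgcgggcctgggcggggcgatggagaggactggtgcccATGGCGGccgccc
Atp5mc2, chr15:102671018-102671297, minus strand: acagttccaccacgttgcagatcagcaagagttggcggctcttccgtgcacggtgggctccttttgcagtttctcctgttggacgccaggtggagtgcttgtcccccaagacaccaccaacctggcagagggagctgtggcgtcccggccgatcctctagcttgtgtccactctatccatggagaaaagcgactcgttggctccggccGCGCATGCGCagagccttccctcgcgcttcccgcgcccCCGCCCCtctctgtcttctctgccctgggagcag
Mrpl41, chr2:24975069-24975348, minus strand: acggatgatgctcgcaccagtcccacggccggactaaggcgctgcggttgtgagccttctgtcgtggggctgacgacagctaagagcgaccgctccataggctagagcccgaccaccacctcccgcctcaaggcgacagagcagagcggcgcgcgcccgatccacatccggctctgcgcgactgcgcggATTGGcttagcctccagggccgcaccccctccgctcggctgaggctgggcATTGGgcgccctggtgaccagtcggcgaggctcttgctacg
Mrps12, chr7:28741792-28742071, minus strand: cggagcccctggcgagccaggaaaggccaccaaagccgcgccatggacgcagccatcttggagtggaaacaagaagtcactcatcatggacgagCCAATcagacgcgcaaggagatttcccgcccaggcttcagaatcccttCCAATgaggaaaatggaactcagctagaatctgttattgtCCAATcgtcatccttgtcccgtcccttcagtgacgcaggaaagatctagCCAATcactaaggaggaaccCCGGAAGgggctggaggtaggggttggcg
Timm13, chr10:80900940-80901219, minus strand: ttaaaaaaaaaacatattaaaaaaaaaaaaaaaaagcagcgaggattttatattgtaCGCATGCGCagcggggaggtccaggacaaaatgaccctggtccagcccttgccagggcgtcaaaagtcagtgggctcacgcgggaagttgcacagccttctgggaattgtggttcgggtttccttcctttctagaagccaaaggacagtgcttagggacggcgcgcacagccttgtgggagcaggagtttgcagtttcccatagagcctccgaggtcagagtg
Tomm40, chr7:19715400-19715679, minus strand: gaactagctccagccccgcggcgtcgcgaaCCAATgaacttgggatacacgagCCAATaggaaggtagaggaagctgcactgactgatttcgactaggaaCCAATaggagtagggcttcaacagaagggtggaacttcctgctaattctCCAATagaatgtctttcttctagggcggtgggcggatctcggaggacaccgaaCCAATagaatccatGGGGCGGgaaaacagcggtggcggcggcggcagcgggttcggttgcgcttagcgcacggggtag

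A CCGGAAG match on either strand stood close to the start in Ndufs8, Sdhaf1 and Mrps12, with its first base 15, 7 and 1 bases past the start. In Cox20 the ETS match lay 103 bases before the start, and a YY1 match with the letters ATGGCGG lay 17 bases past it. Atp5mc2 held an NRF1 palindrome that matches on both strands, 42 bases before the start, and Timm13 held an NRF1 match 193 bases before it. Tomm40 and Mrps12 held no NRF1 match but a row of CCAAT boxes, 5 in Tomm40 from 220 to 48 bases before the start and 4 in Mrps12 from 156 to 19 bases before it. The site of Mrpl41 overlapped only the upstream end of its window, which held CCAAT matches alone.

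Over all 300 bases of each window, to 50 bases past the start, the ETS match was found in 15 of the 39 mitochondrial promoters that overlapped their own site (38.5%). It was found in 19.9% of the 4208 promoters that overlapped any site lower in UTX-deficient cells, and in 8.86% of all 32851 promoters. The YY1 match was in 7 of 39 (17.9%), against 9.72% of promoters under any site and 4.05% of all promoters. For NRF1 the share, also 7 of 39 (17.9%), was close to the 17.7% of promoters under any site, and 6.25% of all promoters held it. SP1 matches were in 15 of 39 mitochondrial promoters (38.5%), a share between the 56.3% under any site and the 23.2% of all. CCAAT was in 16 of 39 mitochondrial promoters (41.0%), against 46.1% under any site and 37.4% of all. The CREB match was in 1 of 39 (2.56%), against 4.09% under any site and 1.79% of all. At least one of the NRF1, ETS and YY1 matches stood in 22 of 39 mitochondrial promoters (56.4%), against 40.4% under any site and 16.6% of all. Base composition moved with the SP1 shares: G and C made up 60.3% of the mitochondrial promoters, 63.8% of those under any site and 53.8% of all, and its part in the motif shares was not tested. These matches describe letters in the windows and are not evidence of binding by the factors.

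**Figure D1:**
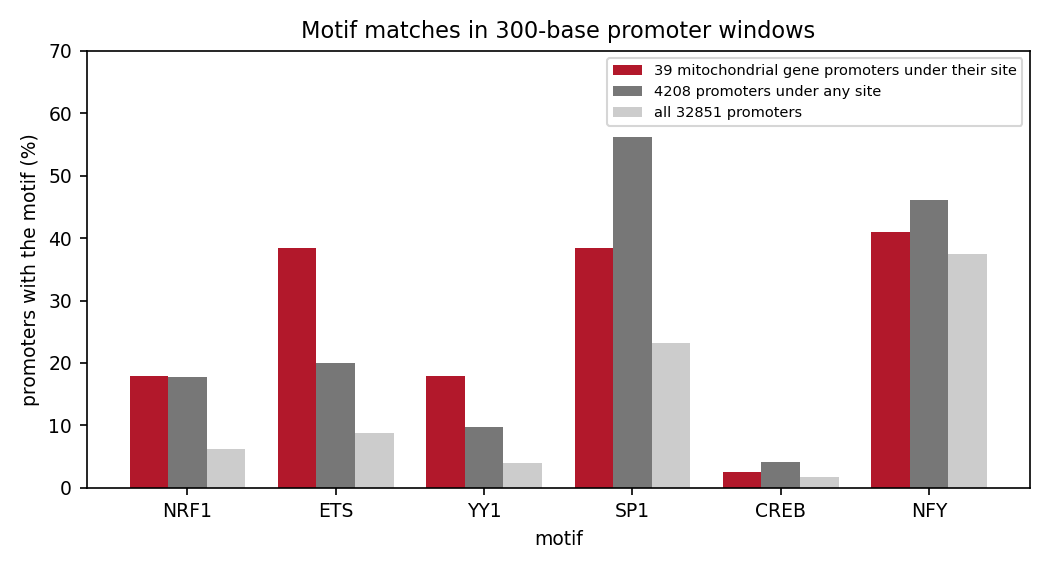
Share of 300-base promoter windows (vertical axis, percent) that hold each of 6 motifs on either strand, for 39 mitochondrial gene promoters under their own site (red), 4208 promoters under any site lower in UTX-deficient cells (dark grey) and all 32851 promoters (light grey). The ETS and YY1 bars are taller for the mitochondrial promoters than for the other sets, the NRF1 bar is level with that of promoters under any site, and the SP1 bar is lower than it.

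All 57 mitochondrial sites were lower in UTX-deficient cells. The authors' deposited table calls 99.7% of its sites lower at FDR 0.05, so the direction is that of the table as a whole. At FDR 0.01 the authors' deposited table holds 44 of the 57 sites as lower (77.2%), against 86.6% of all its sites, and at FDR 0.001 it holds 32 (56.1%), against 72.7%. Per library, the mean over the 57 sites was 0.907, 2.99 and 0 normalized reads per site in UTX-deficient cells and 30.4, 31.8 and 26.3 in WT cells. That gave 1.30 ± 1.53 in UTX-deficient cells and 29.5 ± 2.87 in WT cells (SD, n = 3 each), and the groups did not overlap. Summed over the sites, the raw reads were 100, 183 and 0 in UTX-deficient cells and 2217, 1662 and 1188 in WT cells. At each of the 57 sites both deeper UTX-deficient libraries lay below every WT library, as at 99.7% of all sites. The near-empty library adds nothing to this, since the WT level would give it 0.17 reads per site, and its 0 also lowers the mean of its group. Against the deeper pair alone, the WT mean over the sites was 15.1-fold higher. With 3 libraries against 3, an exact two-sided permutation test of one site cannot go below p = 0.1. limma on log2(normalized reads + 1), adjusted over all sites, called 57 of 57 lower with all 6 libraries and 57 of 57 without the near-empty one, with largest adjusted p of 1.2e-04 and 9.5e-04, and called 99.7% of all sites lower in either setting. Less UTX on each cell and fewer cells with UTX at a site cannot be told apart in such bulk samples.

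**Figure D2:**
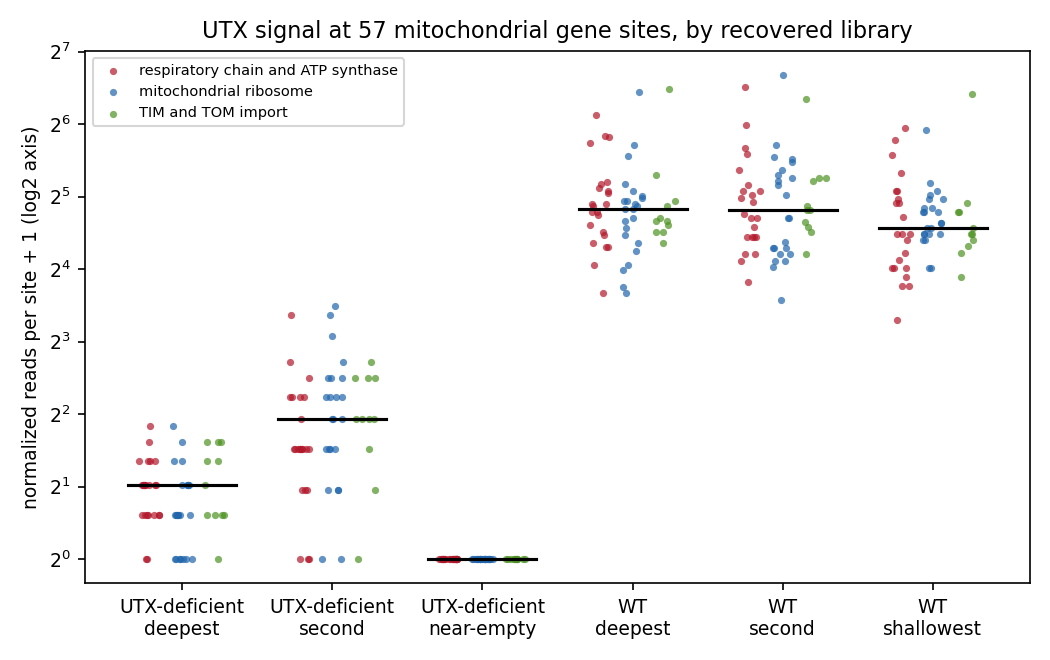
Normalized reads plus 1 at each of the 57 mitochondrial gene sites (vertical axis, log2) in the 6 recovered libraries, UTX-deficient on the left and WT on the right, each ordered by depth; a point is a site, coloured by role, and the black bar is the median. The UTX-deficient means were 0.907, 2.99 and 0 normalized reads per site, against 30.4, 31.8 and 26.3 in WT, and the near-empty library is at 0 throughout.

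The level in WT cells was modest. The median mitochondrial site had a mean of 25.6 normalized reads in WT (range 14.3 to 84.6), against 30.7 over all sites lower in UTX-deficient cells. By WT concentration 5 of the 57 sites ranked in the top 25% of the table, 22 in the bottom 25% and 20 above its median. The median log2 fold per the authors' deposited table was -3.07 (quartiles -3.79 and -2.73, range -5.35 to -2.02), against -3.51 (quartiles -4.06 and -2.91) over all lower sites. With sites that had no read in any UTX-deficient library set at their bound, these medians were -3.14 and -3.51. Such medians mix counting bounds with fitted folds. Across sites the fold was more negative where the WT level was higher, with a Spearman rho of -0.61 over the 57 sites and -0.72 over all lower sites, a description in which both measures contain the same WT reads. The deposited fold is also a fitted value that need not match the ratio of reads. At Mrps24 and Atp5f1d the deeper pair kept 1.76% and 1.62% of the WT level, yet the folds were -2.67 and -5.35. Their WT means were 14.7 and 73.3 normalized reads. How far the fitting shapes the trend and the medians was not tested. The share of the WT level that the deeper pair of UTX-deficient libraries kept had a median of 6.47% at the mitochondrial sites, 6.10% at 35 sites of cytosolic ribosomal protein genes and 5.75% over all lower sites. It was above 10% at 11 of the 57 sites and under 2% at 6.

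**Figure D3:**
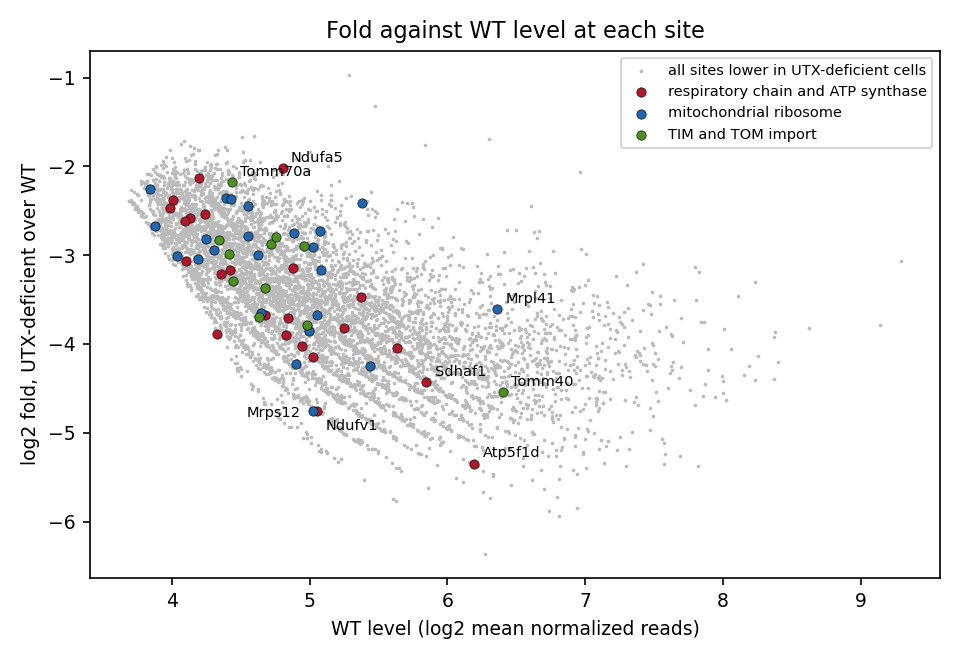
log2 fold of UTX-deficient over WT per the authors' deposited table (vertical axis) against the WT level as log2 mean normalized reads (horizontal axis), for all sites lower in UTX-deficient cells (grey) and the 57 mitochondrial gene sites coloured by role. The folds of the mitochondrial sites run from -5.35 at Atp5f1d to -2.02 at Ndufa5, within the grey cloud, and become more negative as the WT level grows.

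Complex I had 13 sites at 13 of its 49 genes. Core subunits came first by FDR: Ndufs8 and Ndufs7, which carry iron-sulphur clusters, and Ndufv1 and Ndufv2, part of the module that oxidises NADH. In what follows, reads per library run from the deepest library to the shallowest in each group. At Ndufs8 (site at chr19:3912673-3913073, mm10, 99 bp upstream of the start) the reads were 2, 5 and 0 in UTX-deficient cells and 71, 43 and 37 in WT cells. At Ndufv1 they were 1, 0 and 0 in UTX-deficient cells and 34, 37 and 26 in WT cells. Both genes thus had at most 5 raw reads in either deeper UTX-deficient library and at least 26 in each WT library. Such separation, taken on normalized reads, was seen at 99.7% of all sites. The authors' deposited table gives log2 folds of -4.05 at Ndufs8 (FDR 1.11e-13) and -4.75 at Ndufv1 (FDR 4.32e-08). Ndufv2 had 1, 4 and 0 reads in UTX-deficient cells and 43, 46 and 24 in WT cells. Ndufs7 had 1, 2 and 0 reads in UTX-deficient cells and 41, 32 and 20 in WT cells. Their log2 folds per the authors' deposited table were -3.82 (FDR 5.22e-08) and -4.03 (FDR 8.49e-08). The assembly factor genes Ndufaf3 and Ndufaf8 had log2 folds of -3.90 and -3.17 per the authors' deposited table.

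Accessory subunits of complex I made up the rest: Ndufa2, Ndufa5, Ndufa10, Ndufb2, Ndufb5 and Ndufb11, with Ndufa4, a protein first assigned to complex I and later to complex IV. Ndufa2 had no read in any UTX-deficient library and 28, 19 and 14 in WT cells. Ndufa4 likewise had no read in UTX-deficient cells and 20, 19 and 12 in WT cells. Its site lay 5991 bp past the start and 1087 bp from the nearer gene end. Taking 3 reads over the group as the floor, Ndufa2 was at least 20.5-fold and Ndufa4 at least 17.1-fold lower in UTX-deficient cells. The authors' deposited table gives Ndufa2 a log2 fold of -3.89 (FDR 0.00123) and Ndufa4 one of -3.07 (FDR 0.0297), fitted values that are smaller than these counting bounds. No other mitochondrial site lacked reads in all UTX-deficient libraries. At the other end, Ndufa5 had 5, 10 and 0 reads in UTX-deficient cells and 42, 27 and 17 in WT cells, which was the smallest change of the 57 sites. The log2 fold of Ndufa5 was -2.02 per the authors' deposited table (FDR 0.00618), and the deeper pair of UTX-deficient libraries kept 21.3% of the WT level. Ndufb11, Ndufa10, Ndufb5 and Ndufb2 had log2 folds of -3.14, -2.38, -2.58 and -2.47 per the authors' deposited table. The family's median there was -3.17, and -3.82 with Ndufa2 and Ndufa4 at their bounds. The latter mixes counting bounds with fitted folds of the other genes, so it cannot be set against medians of fitted folds.

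Complex II had sites at Sdhb, its iron-sulphur subunit, and at Sdhaf1, which helps to put those clusters into Sdhb. Sdhaf1 (chr7:30322245-30322645, 70 bp upstream of the start) had 2, 4 and 0 reads in UTX-deficient cells and 72, 57 and 43 in WT cells. Sdhb had 2, 2 and 0 reads in UTX-deficient cells and 36, 23 and 26 in WT cells. At both genes each WT library held at least 23 raw reads and neither deeper UTX-deficient library held more than 4. On normalized reads the deeper pair was below every WT library, as at 99.7% of all sites. The authors' deposited table gives log2 folds of -4.43 (FDR 1.57e-15) and -3.70 (FDR 2.81e-07).

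Complex IV had 5 sites, 3 of them at assembly factors. Cox20 and Cox18 act in the maturation of the mitochondrially encoded subunit COX2, and Cox14 acts in that of COX1. Cox20 (chr1:178318832-178319232, 121 bp upstream of a start) had 1, 2 and 0 reads in UTX-deficient cells and 46, 30 and 23 in WT cells. Cox14 had 2, 6 and 0 reads in UTX-deficient cells and 67, 30 and 31 in WT cells. Cox18 had 1, 2 and 0 reads in UTX-deficient cells and 37, 24 and 17 in WT cells. In these genes the lowest WT library held 17 to 30 raw reads and the highest UTX-deficient one 2 to 6. The deeper UTX-deficient pair lay below every WT library on normalized reads, as at 99.7% of all sites. Log2 folds per the authors' deposited table were -4.15 for Cox20 (FDR 1.19e-08), -3.47 for Cox14 (FDR 3.46e-08) and -3.68 for Cox18 (FDR 5.48e-06). The structural subunit gene Cox5a and the supercomplex factor gene Cox7a2l followed with -3.21 and -2.54 per the authors' deposited table.

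The ATP synthase had the widest range of any family, with 3 sites at 3 of 17 genes. Atp5f1d (chr10:80141242-80141642, 833 bp upstream of a start) encodes the delta subunit of the central stalk and had 1, 2 and 0 reads in UTX-deficient cells and 88, 83 and 48 in WT cells. Its log2 fold of -5.35 (FDR 3.76e-15) was the most negative of all 57 sites per the authors' deposited table. The Atp5f1d site lay 2744 bp from the nearer end of that gene, and an end of Cbarp was closer, at 1087 bp. Atp5pf, which belongs to the peripheral stalk, had 4, 4 and 0 reads in UTX-deficient cells and 25, 21 and 10 in WT cells. Its log2 fold of -2.13 (FDR 0.0163) was among the smallest per the authors' deposited table. Atp5mc2, one of the genes for the proton-carrying c ring, had 2, 2 and 0 reads in UTX-deficient cells and 27, 16 and 10 in WT cells, and a log2 fold of -2.61 (FDR 0.00789) per the authors' deposited table. Groups did not overlap at any of these genes, as at 99.7% of all sites. The shallowest WT library held only 10 reads at Atp5pf and at Atp5mc2.

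The large subunit of the mitochondrial ribosome had 14 sites at 13 of 49 genes. Mrpl41 (chr2:24975298-24975698, 400 bp upstream of the start) had 4, 11 and 0 reads in UTX-deficient cells and 110, 93 and 47 in WT cells, one of the highest WT levels among the members. Mrpl54 had 2, 3 and 0 reads in UTX-deficient cells and 38, 40 and 21 in WT cells. Log2 folds were -3.61 at Mrpl41 (FDR 2.01e-09) and -3.68 at Mrpl54 (FDR 1.43e-07) per the authors' deposited table. Mrpl58, a peptidyl-tRNA hydrolase built into the ribosome, had a pair of sites 5652 bp apart. The first held 0, 4 and 0 reads in UTX-deficient cells and 59, 47 and 26 in WT cells, and the second 0, 2 and 0 in UTX-deficient cells and 29, 15 and 16 in WT cells. The authors' deposited table gives them log2 folds of -4.24 and -2.94. For the second site the nearest annotated start was that of another member of these families, Atp5h, 7067 bp away.

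Mrpl48 had 5, 4 and 0 reads in UTX-deficient cells and 38, 37 and 25 in WT cells. Its site lay 413 bp past a start of Mrpl48. Mrpl17 had uneven UTX-deficient libraries, with 0, 10 and 0 reads, against 66, 42 and 22 in WT cells. The authors' deposited table gives log2 folds of -3.17 at Mrpl48 (FDR 4.06e-08) and -2.41 at Mrpl17 (FDR 0.0336). The other large-subunit genes, Mrpl1, Mrpl2, Mrpl9, Mrpl11, Mrpl12, Mrpl38, Mrpl40 and Mrpl51, had log2 folds from -4.22 at Mrpl1 to -2.44 at Mrpl11 per the authors' deposited table.

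The small subunit, taken by gene name alone, had 9 sites at 9 of 29 genes. Its median WT level was 21.6 normalized reads per site, against 27.5 in the large subunit. Mrps12 (chr7:28741666-28742066, 45 bp upstream of the start) encodes a protein near the decoding centre and had 1, 0 and 0 reads in UTX-deficient cells and 45, 33 and 21 in WT cells. Mrps28 had 3, 8 and 0 reads in UTX-deficient cells and 42, 35 and 24 in WT cells. Mrps12 was thus nearly without reads in UTX-deficient cells, while at Mrps28 the deeper pair kept 13.3% of the WT level. Log2 folds were -4.75 at Mrps12 (FDR 3.44e-08) and -2.73 at Mrps28 (FDR 3.44e-05) per the authors' deposited table. Mrps27 and Mrps24 had the lowest WT levels of all 57 sites. Mrps27 had 2, 2 and 0 reads in UTX-deficient cells and 16, 14 and 12 in WT cells. Mrps24 had 1, 0 and 0 reads in UTX-deficient cells and 15, 10 and 17 in WT cells. The groups stayed apart at both genes, as at 99.7% of all sites, with FDRs of 0.0338 and 0.0467 per the authors' deposited table. The site assigned to Mrps18a, with 1, 3 and 0 reads in UTX-deficient cells and 39, 32 and 24 in WT cells, lay 36929 bp upstream of that gene. Mrps14, Mrps16, Mrps26 and Mrps36 had log2 folds from -3.01 to -2.36 per the authors' deposited table.

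Of the import genes, Tomm40, the channel of the outer membrane, stood first of all 57 sites by FDR and by WT level. Its site (chr7:19715451-19715851, 222 bp upstream of the start) had 4, 5 and 0 reads in UTX-deficient cells and 113, 74 and 67 in WT cells. As normalized reads this was 2.24 ± 2.34 in UTX-deficient cells and 84.6 ± 3.8 in WT cells (SD, n = 3 each). The authors' deposited table gives Tomm40 a log2 fold of -4.55 (FDR 6.2e-21). The site lay 9 bp outside Tomm40, and the start of Gm38955 was nearer to it, at 187 bp. With these starts 35 bp apart, the site cannot be given to Tomm40 alone. The receptor gene Tomm70a had 4, 6 and 0 reads in UTX-deficient cells and 31, 20 and 15 in WT cells, and its log2 fold per the authors' deposited table was -2.17 (FDR 0.00484). The paralogue Tomm40l and the cytosolic co-chaperone gene Tomm34 had -3.37 and -3.69 per the authors' deposited table.

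In the inner membrane families, Timm13 (chr10:80900776-80901176, 7 bp upstream of the start) encodes a small chaperone of the intermembrane space and had 1, 3 and 0 reads in UTX-deficient cells and 49, 25 and 23 in WT cells. Timm17b, a channel subunit of the TIM23 complex, had 4, 3 and 0 reads in UTX-deficient cells and 36, 34 and 11 in WT cells. Timm10b and Timm21, a small TIM chaperone and a TIM23 subunit, had 3, 2 and 0 and 1, 3 and 0 reads in UTX-deficient cells, against 25, 21 and 17 and 28, 16 and 17 in WT cells. Neither deeper UTX-deficient library held more than 4 raw reads at these genes and no WT library fewer than 11. As normalized reads the deeper pair lay below every WT library, as at 99.7% of all sites. Log2 folds per the authors' deposited table were -3.79 at Timm13 (FDR 2.05e-07), -2.87 at Timm17b, -2.98 at Timm10b and -2.83 at Timm21. Timm8a2 had 3 sites, the most of any of the genes, but none touched it: they lay 14639, 15621 and 28110 bp from its nearer end. Their log2 folds per the authors' deposited table were -2.79, -2.89 and -3.29.

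A site lower in UTX-deficient cells was assigned to 54 of the 212 protein-coding genes of the 9 families (25.5%, exact Clopper-Pearson 95% interval 19.8 to 31.9, treating genes as independent). Over all protein-coding genes the share was 22.1%, which lies within that interval. By family the share ran from 0 of 8 in complex III (exact interval up to 36.9%), 17.6% in the ATP synthase and 18.5% in complex IV through 25% in complex II, 26.5% in complex I and in the large ribosomal subunit, 31.0% in the small subunit and 33.3% in the inner to 40% in the outer membrane translocase. Sites assigned to the gene and within 1 kb of one of its ends were found at 48 of 212 genes (22.6%), against 15.3% of all protein-coding genes.

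The assignment to 1 gene per site hid some of the family members. Counting any site within 1 kb of a gene end, whichever gene the authors had assigned it to, 66 of 212 genes had one (31.1%), against 19.5% of all protein-coding genes. Complex III was then no longer empty. Uqcrq, its ubiquinone-binding subunit, had a site at chr11:53430835-53431235, 204 bp from its end, that the authors had assigned to Gdf9, with 6, 17 and 0 reads in UTX-deficient cells and 144, 104 and 76 in WT cells. Uqcrh, the hinge subunit, had a site 170 bp upstream of its start assigned to Lrrc41, with 2, 6 and 0 reads in UTX-deficient cells and 47, 49 and 27 in WT cells. These WT levels were above those of most members, and the groups did not overlap, as at 99.7% of all sites. The authors' deposited table gives the Gdf9 and Lrrc41 sites log2 folds of -3.34 (FDR 2.46e-07) and -3.47 (FDR 3.56e-08). Both genes, and the ones in the next sentences, were picked for naming with the values in view.

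In all, 17 family genes without an assigned site had one within 1 kb of an end, at 18 sites counting a pair at Mrps18b. Mrps18b, of the small ribosomal subunit, lay 379 bp downstream of a site assigned to Ppp1r10, with 4, 6 and 0 reads in UTX-deficient cells and 134, 115 and 85 in WT cells. The start of Ndufa11, a complex I subunit, lay 579 bp from a site assigned to Vmac, with 2, 6 and 0 reads in UTX-deficient cells and 102, 85 and 48 in WT cells. That of Ndufv3, of the NADH-oxidising module, lay 74 bp from a site assigned to Wdr4, with 1, 6 and 0 reads in UTX-deficient cells and 66, 52 and 45 in WT cells. Others were Sdhaf2, Ndufa13, Ndufb1, Cox4i1, Cox10, Atp5md, Mrpl14, Mrpl37, Mrpl47, Mrps7 and Timm44. At 8 of the 18 sites the end of the family gene was nearer than that of the assigned gene. Across the 18 sites the log2 folds per the authors' deposited table ran from -5.18 to -2.42.

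**Figure D4:**
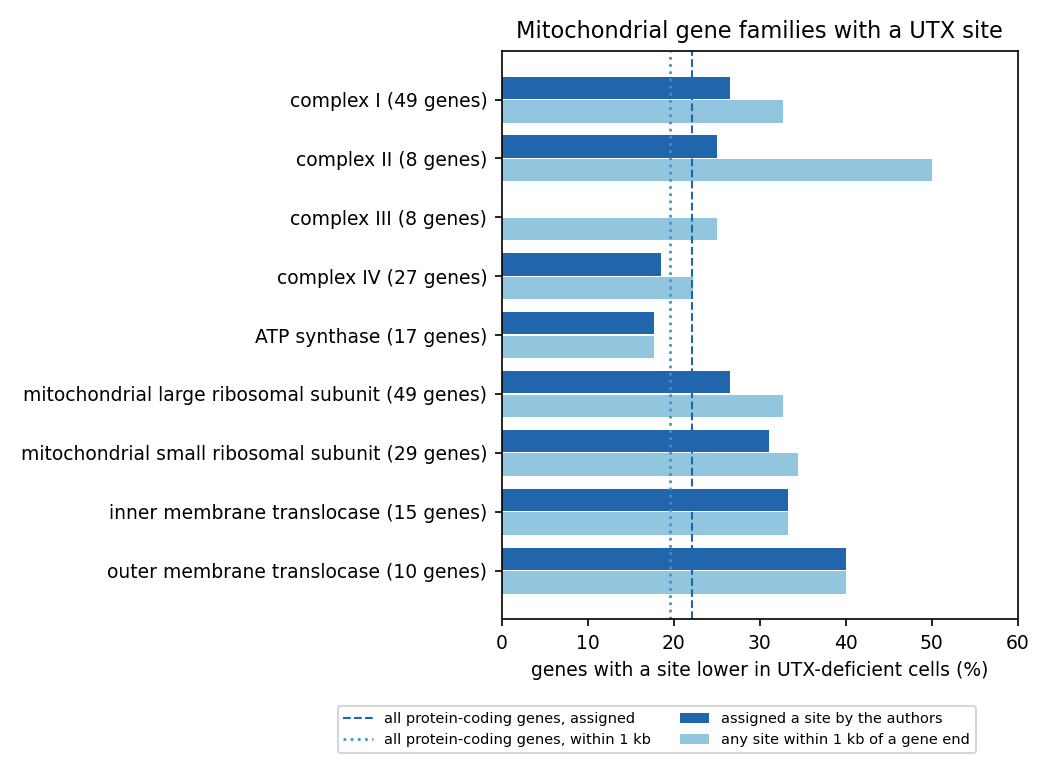
Share of the protein-coding genes of each family (horizontal axis, percent) with a site lower in UTX-deficient cells, assigned to the gene by the authors (dark bars) or lying within 1 kb of a gene end whichever gene it was assigned to (light bars); the dashed and dotted lines give the same shares over all protein-coding genes, 22.1% and 19.5%. Complex III has no dark bar and a light bar at 25%, and the light bar of every family except the ATP synthase lies above the dotted line.

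Mitochondrial sites lay close to transcription starts. Of the 57, 48 were within 1 kb of an end of the assigned gene (84.2%, exact Clopper-Pearson 95% interval 72.1 to 92.5, treating sites as independent), against 53.2% of all lower sites. The nearer gene end was a median of 128 bp away from the centre of the site, against 644 bp. No other gene had a closer end at 44 of the 57 sites (77.2%), against 70.4% of all lower sites. Among the 50 sites with an annotated start, 43 lay within 1 kb of it (86%), against 61.0% of all lower sites, and 31 of these 43 were upstream. The start itself fell inside the 401-bp site at 33 of 50 (66%), against 45.8%. At cytosolic ribosomal protein genes, another set of housekeeping genes, 20 of 21 sites with a start were within 1 kb of it (95.2%) and the start fell inside 81.0%. Gene length, which bears on distance to an end, was not tested.

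**Figure D5:**
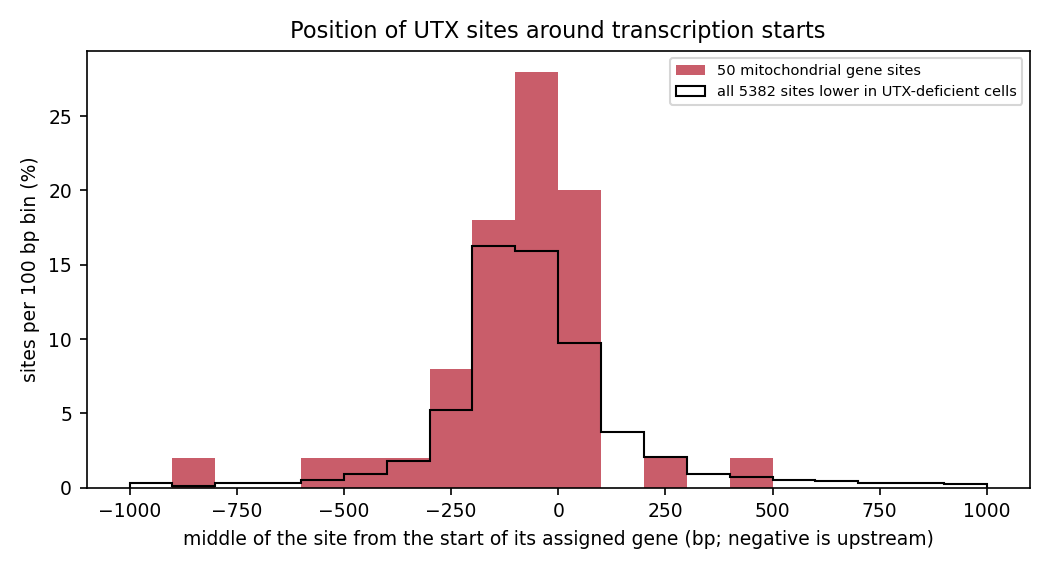
Position of the site's centre relative to the start of the assigned gene (horizontal axis, bp, negative upstream, shown within 1 kb), as the share of sites per 100-bp bin (vertical axis), for the 50 mitochondrial gene sites with an annotated start (red) and all lower sites with one (black outline). Most red bars stand just before and just past the start, with 31 of 43 sites within 1 kb lying upstream of it.

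Many of these promoters face another gene. For 15 of the 50 sites (30%) a start on the opposite strand lay within 1 kb of the gene's own start. It pointed away, with an overlap of up to 100 bp between the starts allowed. The share was 16.6% for all lower sites with a start and 28.6% for those at cytosolic ribosomal protein genes. The 15 include Ndufa4, whose site lay 5991 bp past its start and not at the promoter. Atp5pf shares its promoter region with Gabpa, which encodes the DNA-binding subunit of GABP, with 148 bp between the starts. The site assigned to Atp5pf lay 67 bp from the Gabpa start and 81 bp from that of Atp5pf, and no site was assigned to Gabpa. Ndufb5 and Mrpl47, of complex I and the large ribosomal subunit, start 308 bp apart, and the 1 site between them, with 3, 1 and 0 reads in UTX-deficient cells and 24, 23 and 7 in WT cells, was assigned to Ndufb5. Mrps12 starts 147 bp from Sars2, which encodes the mitochondrial seryl-tRNA synthetase, and Mrps27 starts 108 bp from Ptcd2, a mitochondrial RNA-processing gene. Further pairs were Timm10b and Arfip2, Tomm40 and Gm38955, Timm17b and Pqbp1, Mrpl40 and Hira, and Mrpl2 and Klc4. Their starts lay 29, 35, 67, 113 and 141 bp apart. A site over such a region cannot be given to one of the pair.

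Some members lay near each other on a chromosome. On chromosome 19 the Ndufs8 and Ndufv1 sites were 99915 bp apart, and on chromosome 10 the Atp5f1d and Ndufs7 sites were 107896 bp apart, with Timm13 and Mrpl54 farther along.

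Other mitochondrial genes outside these name patterns also had sites, all of them lower in UTX-deficient cells. Their lists were drawn up with earlier results of these data known, so their shares are descriptions with no test, beside the 22.1% of all protein-coding genes. Of 17 tricarboxylic acid cycle genes 9 had a site (52.9%), among them Ogdh and Cs, which encode oxoglutarate dehydrogenase and citrate synthase, with log2 folds of -4.22 and -3.53 per the authors' deposited table. Of 23 regulators of mitochondrial biogenesis 10 had a site (43.5%). The mitochondrial transcription factor gene Tfam, named like Cycs below with its values in view, had 4, 2 and 0 reads in UTX-deficient cells and 58, 44 and 25 in WT cells. Esrra, a nuclear receptor that drives respiratory genes, had 1, 8 and 0 reads in UTX-deficient cells and 177, 129 and 82 in WT cells. Yy1 itself had 5 sites, at 29, 1447, 26993, 29286 and 34825 bp from its nearer end. The one with the smallest FDR, the nearest, held 1, 4 and 0 reads in UTX-deficient cells and 115, 87 and 76 in WT cells. At these sites of Tfam, Esrra and Yy1 the groups did not overlap, as at 99.7% of all sites. Their log2 folds were -3.94, -4.68 and -5.29 per the authors' deposited table. Lrpprc, an RNA-binding protein that stabilises mitochondrial mRNAs, had 4 sites, at 96, 54462, 64748 and 69347 bp from its nearer end. No site was assigned to Nrf1, Ppargc1a or Polrmt.

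Electron carriers and assembly factors had a site at 13 of 30 genes (43.3%). Coa7, Atpaf2 and Tmem126b had log2 folds of -4.69, -4.51 and -4.38 per the authors' deposited table. That Coa7 site lay 9020 bp upstream of the gene, and another lay 12 bp past its start. Cycs, which encodes cytochrome c, had 1, 0 and 0 reads in UTX-deficient cells and 39, 28 and 22 in WT cells. Genes of mitochondrial dynamics and quality control had a site at 9 of 21 (42.9%), with the outer membrane channel genes Vdac2 and Vdac1 and the protease gene Lonp1 at -4.40, -4.33 and -3.98 per the authors' deposited table. The Vdac1 site with the smallest FDR lay 19609 bp from the gene. Another Vdac1 site lay 76 bp past the start, with a log2 fold of -4.54 per the authors' deposited table. Translation and import genes outside the patterns had a site at 8 of 25 (32%), with Mtrf1l, Mtx1 and Hspa9, a release factor, an import factor and the matrix chaperone, at -3.92, -4.88 and -4.41 per the authors' deposited table.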

How the data were processed

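UTX CUT&Tag was measured in 3 UTX-deficient and 3 WT samples; the values come from a DiffBind report of the whole series. Build mm10 and the tools DiffBind, MACS2, Bowtie2, cutadapt, FastQC, Picard and SAMtools stand in the submitters' processing notes; their versions, their roles and whether peaks were called on pooled samples are not given in the sources. Per the file headers, each 401-bp site has 3 concentrations (all samples, WT, UTX), a fold, its p-value and FDR, and a gene symbol. The authors' concentrations are log2 mean normalized reads that never go below 0, and their fold is a log2 value, UTX-deficient over WT. That fold is a fitted value and not the plain difference of the group concentrations. The p-value and FDR are deposited as the authors computed them, and every FDR is under 0.05. The table has 0 other columns of per-sample values.

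Members were found by symbol pattern and grouped with the same patterns in RefSeq's gene table (GRCm38.p6), older Atp5 symbols through its synonyms; 6673 sites matched and 6669 were placed. The authors' fold and FDR are the main result. Each group's concentration is a sum of 3 whole read numbers times the worth of 1 read in each library; these sums were solved at 6738 UTX-deficient and 6736 WT sites with 1 solution. Recovered libraries carry no replicate number. limma 3.58.1 in R 4.3.3 (trend on, pseudocount 1, Benjamini-Hochberg over all 6735 solved sites, two-sided) was an alternative, run also on simulated data. The simulation gave the near-empty library the depth of the deepest one and left most sites unchanged. It therefore does not check the fit at the real depths or with nearly all sites lower. limma borrows the spread across sites, so its p-values are far below what 6 libraries give for a site alone. Reads are not molecules counted by identifiers, so floors cover counting error only, and 1 read of the near-empty library equals 173.2 normalized reads. Distances run from the centre of a site to the nearer gene end, or to the start in RefSeq's promoter table.

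Sites described one by one were, within each family, up to 4 with the smallest FDR and the one with the smallest absolute fold, the extremes of fold and WT level, genes with several sites and sites over 10 kb from their gene, and up to 3 genes of each other list; other members are given by their folds. The members and lists were chosen with earlier results of these data known. Exon, intron and UTR annotation was not used here, and the values of 2 sites outside the members are not reported here.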

Additional observations from a re-analysis of the deposited data

How the results depend on the processing

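No paired analysis was possible because the group columns of the table carry no replicate numbers. Each member had already passed the authors' test on the same reads, so the direction in the alternatives was all but set beforehand. limma called 57 of 57 sites lower with all 6 libraries, without the near-empty library, with a pseudocount of 5 and leaving out each other library in turn. With a mean of at least 10 normalized reads it called 47 of 47 sites. The largest limma adjusted p lay between 5.2e-11 and 0.0085. With all 6 libraries, and without the near-empty one, limma called 99.7% of all sites lower. At FDR under 0.001 the authors' deposited table held 32 member sites (56.1%, against 72.7% of all its sites) and 32 member genes. The median log2 fold of the authors' deposited table was -3.42 at FDR under 0.01 and -3.69 at FDR under 0.001. By limma it was -3.88 with all 6 libraries, -3.59 without the near-empty one, -4.02 for sites with a mean of at least 10 and -2.35 with a pseudocount of 5, and -4.37 to -3.78 leaving out one of the other libraries at a time. A larger pseudocount pulls low sites towards 0 by construction. The share of sites near a gene end was 78.9% within 500 bp and 91.2% within 5 kb, and 86% within 1 kb of a start, a measure added after the data were seen. Genes with a site numbered 51 within 10 kb and 48 within 1 kb. With 1 read of the near-empty library worth more than any member site's group mean, that library can show neither loss nor presence of signal at a member site, where the WT level would give it 0.17 reads.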
